A study of Mus musculus with 4 samples.

Results

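Mbp and Mobp, a pair of myelin genes, were followed transcript by transcript in RNA from sorted adult mouse neural stem cells. Every deposited transcript that the GENCODE M21 annotation assigns to either symbol was taken, which gave 20 of the 99567 transcripts in the files, 16 of Mbp and 4 of Mobp. Both genes were chosen by their measured levels in these libraries, which were high, and Mobp also by the measured lead of a transcript annotated as a target of nonsense-mediated decay. Their levels and shares are therefore described and not tested. The annotation lists 16 transcripts of Mbp and 7 of Mobp, and the Mobp transcripts Mobp-205, Mobp-206 and Mobp-207 were not analysed here.

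The data are 4 libraries of 1 group. Per the labels, the cells were activated neural stem cells that were positive for EGFR, Prom1 and GFAP, sorted by flow cytometry from untreated transgenic mice carrying gfap:GFP on a mixed CD1 and C57BL/6 background at 3 months of age. The reporter marks cells in which the Gfap promoter is active, which includes astrocytes as well as stem cells. The series' own design text instead speaks of quiescent cells after injection of artificial cerebrospinal fluid or of inhibitors of miR204, and the sample labels were followed here. No label says whether the libraries came from separate animals or pools, so the spread between them may be technical. The files hold 22695719, 20526059, 16978938 and 23727664 estimated counts in libraries 1 to 4, so depth was of the same order in all of them. Levels are in TPM, a transcript abundance scale whose values are corrected for transcript length and sum to the same total in each library. The stem cell and astrocyte markers were present throughout: Gfap lay between 107 and 227 TPM, Prom1 between 14.6 and 31.7 TPM and Egfr between 71.5 and 121 TPM.

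Myelin basic protein (MBP) holds the cytoplasmic faces of the myelin membrane together, and myelin-associated oligodendrocytic basic protein (MOBP) is a small basic protein of the same compartment. Both mRNAs are known to be carried along oligodendrocyte processes and translated near the sites where myelin is assembled. The Mbp gene contains an upstream promoter that opens a longer transcription unit, Golli, whose proteins combine Golli exons with MBP sequence or end before it and are also known from neurons, oligodendrocyte precursors and immune cells. Nonsense-mediated decay is the surveillance pathway that degrades an mRNA when its stop codon lies well upstream of an exon junction.

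The coding sequence of Mobp is shown first because the difference between the decay form and the short coding forms does not lie in it. Mobp-204, the transcript annotated as a decay target, and Mobp-202, annotated as protein-coding, have the same reading frame of 243 coding bases for 81 residues. It is given here with its stop codon as genome sequence of GRCm38 from the plus strand, joined from chr9:120167805-120168010 and chr9:120173151-120173190. The capitals mark the part in the second coding exon, which ends in the stop codon.
Mobp-204 and Mobp-202: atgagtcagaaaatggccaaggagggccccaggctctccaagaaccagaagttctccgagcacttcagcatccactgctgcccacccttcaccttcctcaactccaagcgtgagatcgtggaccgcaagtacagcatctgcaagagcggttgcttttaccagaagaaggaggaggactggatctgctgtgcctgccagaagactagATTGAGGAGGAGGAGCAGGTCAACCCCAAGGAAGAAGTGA
Mobp-201 leaves this frame at the same splice site and continues into another exon, to give 170 residues. Its junction is shown from chr9:120167981-120168010 and chr9:120168223-120168282 of the plus strand, with the new exon in capitals.
Mobp-201: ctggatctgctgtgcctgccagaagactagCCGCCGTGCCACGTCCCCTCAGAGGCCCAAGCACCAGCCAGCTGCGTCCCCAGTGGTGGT
The first coding exon thus contributes 206 bases to all of these forms, and the forms part after it.

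Beyond the shared stop codon the annotation of Mobp-204 goes on through 2 more exon junctions, the last of them 264 bases after the stop, while Mobp-201, Mobp-202 and Mobp-203 have none after theirs. Such a layout is the usual basis for that annotation class. Of the 2609 bases of Mobp-204, 2039 are in no other deposited Mobp transcript: an exon of 79 bases and a last exon of 1960 bases. Reads that touch these bases, at the far 3′ end of the gene, set Mobp-204 apart from the other forms. Exons of the annotated gene Gm38642 on the same strand overlap 79 exon bases of Mobp-204; its transcripts were not analysed here, and the labels do not say that the libraries keep strand. Mobp-201 has 1191 bases of its own and Mobp-202 has 2716 by the annotation. The 2716 rest on the annotated Mobp-203 of 481 bases, which is shorter than the deposited one of 3207.

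The deposited length equals the annotated length for 10 of the 16 Mbp transcripts and 2 of the 4 Mobp transcripts. For the other 6 and 2 the exon content behind the deposited value is not known, so any exon or protein named for them is the annotation's, and they stay out of the exon shares given for Mbp. The deposited 3207 bases of Mobp-203 equal the length of Mobp-202 without its second exon of 79 bases, and the deposited 1501 bases of Mobp-201 equal its annotated length without the first 35 bases.

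**Figure D1:**
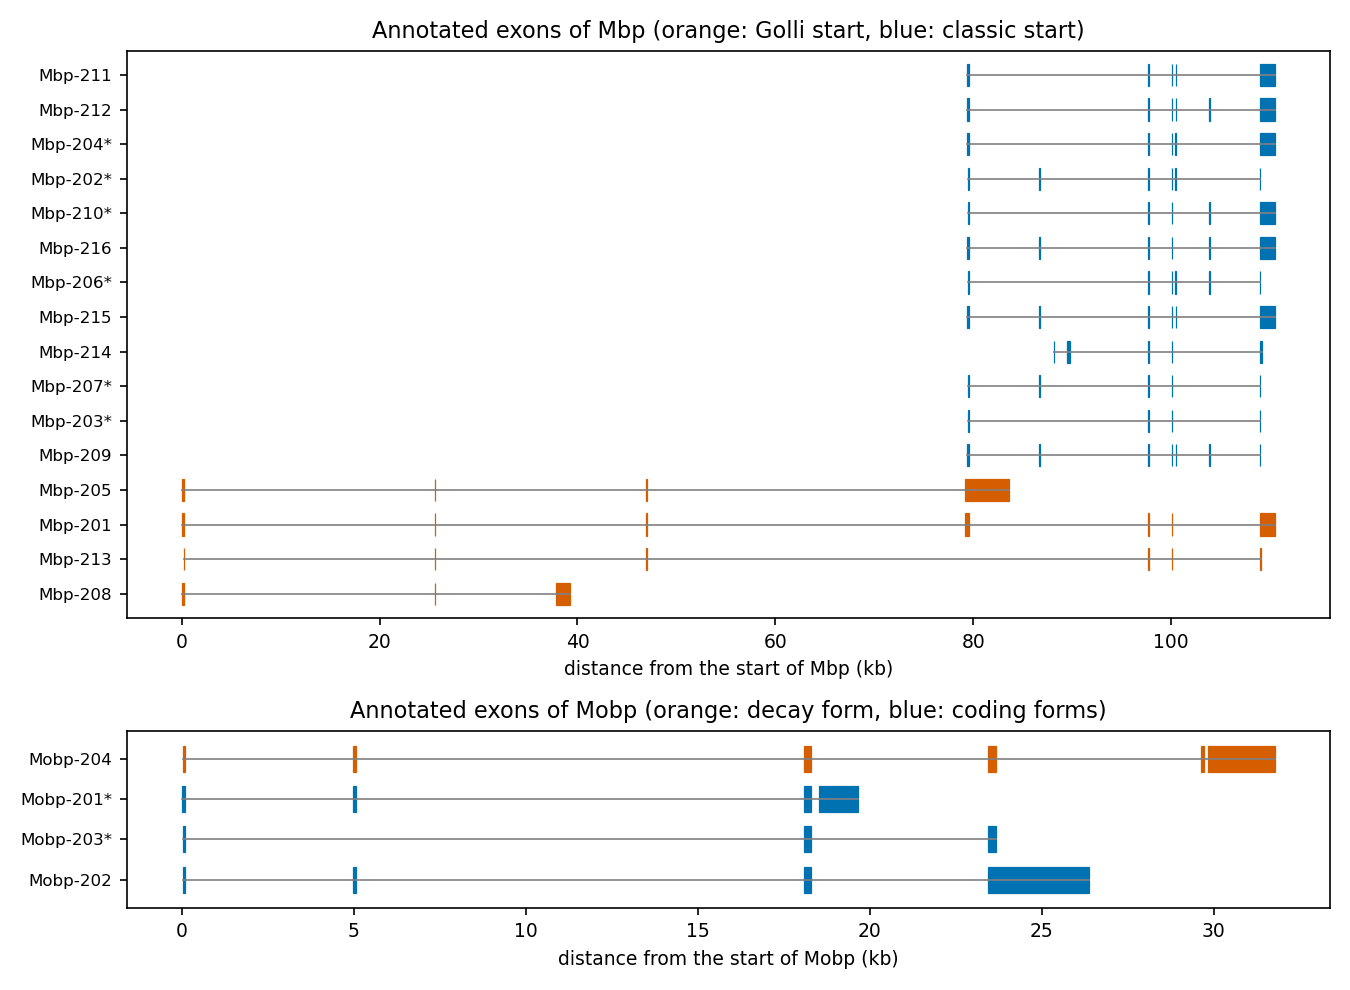
Annotated exons of the 16 Mbp transcripts (top) and the 4 Mobp transcripts (bottom) by distance from the start of each gene in kilobases; boxes are exons, lines introns, and an asterisk marks the 6 and 2 transcripts whose deposited length differs from the annotated one. Orange marks the 4 Golli-start Mbp transcripts and the decay form Mobp-204, which alone reaches the far end of Mobp.

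Mbp was among the most abundant genes of the sorted cells. Its transcripts summed to 1774, 1608, 1471 and 1969 TPM in libraries 1 to 4, a mean of 1706 ± 214.9 TPM (SD, n = 4). It ranked between 38 and 47 of 32564 genes in each library. The gene lies on chromosome 18 from 82475146 to 82585637 of the plus strand. Mobp, on chromosome 9 from 120149707 to 120181484 of the plus strand, had 341, 335, 312 and 405 TPM, a mean of 348 ± 39.7 TPM (SD, n = 4). Its rank was between 250 and 359. Mbp exceeded Mobp in every library, by 2.38, 2.26, 2.24 and 2.28 on the log2 scale. The mean log2 ratio was 2.29 ± 0.06 (SD, n = 4). Each sum varied little between libraries, by 1.34-fold for Mbp and 1.30-fold for Mobp, so the ratio had little room to vary. With protein-coding transcripts only, the log2 ratio was 6.58, 4.48, 4.35 and 4.32 in libraries 1 to 4. In bulk RNA, fewer cells of a type and less RNA per cell cannot be told apart.

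Classic Mbp transcripts made up nearly all of the Mbp signal. This class holds the 12 transcripts without a Golli start, which begin near the classic start codon except Mbp-214, and they summed to 1761, 1591, 1456 and 1957 TPM. The most abundant was Mbp-211, which lacks exons II and VI and encodes 128 residues with a predicted 14.2 kDa, the smallest of the main MBP proteins. It had 1223, 1117, 999 and 1322 TPM in libraries 1 to 4. Mbp-212, which includes exon VI and encodes 169 residues of 18.5 kDa, had 313, 252, 231 and 369 TPM. Library 3 was lowest and library 4 highest for both. Mbp-211 exceeded Mbp-212 by 3.91-fold, 4.44-fold, 4.33-fold and 3.58-fold, so the order of these 2 forms was the same in all 4 libraries. Both have 0 bases in no other deposited Mbp transcript, so their levels are estimates from shared reads.

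Further classic transcripts differ in length between the annotation and the files. Mbp-204 had 190, 173, 163 and 215.1 TPM and kept close to Mbp-211, which exceeded it between 6.12-fold and 6.46-fold. Mbp-202, annotated with exon II, had 30.7, 39.2, 47.4 and 44.5 TPM, from 1156 estimated counts on average, and was lowest in library 1. Mbp-210 had 4.28, 9.08 and 3.13 TPM in libraries 1 to 3 and was at 0 in library 4. Mbp-206 stayed between 0.19 and 2.36 TPM. The last of these varied 12.6-fold, at few counts (25.7 on average).

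Exon II is known from the MBP proteins of early and premyelinating oligodendrocytes. Besides Mbp-202, 4 classic coding transcripts are annotated with it, and these had little or no signal. Mbp-216, with exons II and VI and 184 residues, had 7.25 TPM in library 3 and 3.62 TPM in library 4, and at most 0.03 TPM in the others; in library 3 it held 152 estimated counts. Mbp-215, with exon II and 154 residues of 17.2 kDa, lay between 0.08 and 1.07 TPM. Mbp-209, the 21.5 kDa form with both exons, was at 0 in all 4 libraries. At 3 counts the limit was 0.575 TPM in the library where it was highest. By the annotation Mbp-209 has 0 bases of its own, so its 0 rests on the split of shared reads, which this limit does not cover. Its deposited model is short (638 bases) and ends with the coding sequence.

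Exon use was summed over the 5 classic coding transcripts whose lengths match (Mbp-209, Mbp-211, Mbp-212, Mbp-215 and Mbp-216), which carried 85.0 to 87.2% of classic TPM. Exon VI was in 20.4, 18.4, 19.2 and 22.0% of their TPM, a mean of 20.0 ± 1.56% (SD, n = 4). Exon II was in 0.01, 0.05, 0.67 and 0.26%, a mean of 0.25 ± 0.30%. The share with exon VI was thus nearly even across libraries. The exon II share leaves out Mbp-202, whose deposited length differs. With the annotated exons of all 11 classic coding transcripts taken as they stand, a choice made after the values were seen, exon II was in 1.75, 2.51, 3.83 and 2.50% of their TPM, a mean of 2.65 ± 0.865% (SD, n = 4), and exon VI in 17.6 ± 1.24%. The size of the exon II share therefore depends on what the deposited Mbp-202 contains. Mbp-203 and Mbp-207 were at 0 in all libraries, with limits of 0.143 and 0.14 TPM. Both have 0 bases of their own by the annotation, so these limits do not cover the split of shared reads. Mbp-214, a non-coding processed transcript that starts 8682 bases beyond the classic start codon, reached 1.82 TPM in library 3 and 0.37 TPM in library 4 and was at 0 in the others.

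**Figure D2:**
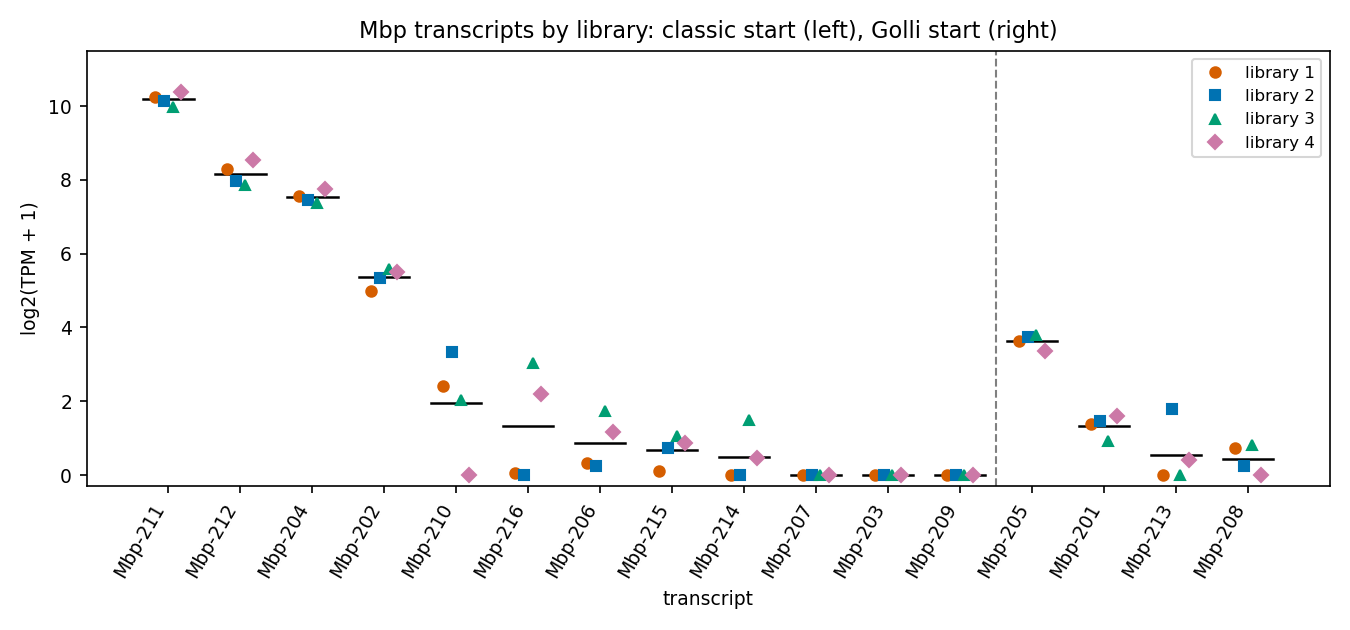
Level of each Mbp transcript in the 4 libraries as log2(TPM + 1), with the classic-start transcripts left of the dashed line and the Golli-start transcripts right of it; the black line is the mean of the 4 log2 values. Mbp-211 stands highest in every library, and Mbp-205 leads the Golli-start transcripts at 9.25 to 13.0 TPM.

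Golli-start transcripts begin more than 10000 bases upstream of the classic start codon, and 4 of them were in the files. They summed to 13.6, 16.9, 14.6 and 11.6 TPM in libraries 1 to 4, a mean of 14.2 ± 2.17 TPM (SD, n = 4). Classic transcripts exceeded them by 7.02, 6.56, 6.64 and 7.39 on the log2 scale, a mean of 6.90 ± 0.38 or about 120-fold. The Golli share of Mbp TPM was 0.767, 1.05, 0.992 and 0.591%, a mean of 0.850 ± 0.211%. Library 4 had the most classic and the least Golli signal.

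Most of the Golli signal came from Mbp-205, which encodes 195 residues, the size of the Golli protein BG21. It had 11.3, 12.5, 13.0 and 9.25 TPM, from 821, 841, 660 and 685 estimated counts. Of its 4797 bases, 3955 are in no other deposited Mbp transcript. Of these, 3953 form one stretch that runs on from the first classic exon past its splice site, at 82554751 to 82558703, where classic pre-mRNA has intron sequence. The part of unspliced classic RNA in this estimate was not tested.

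Mbp-201 joins Golli exons to the classic downstream exons and encodes 250 residues, the size of the Golli protein J37. It had 1.61, 1.74, 0.89 and 2.06 TPM, from 54.3 estimated counts on average. By the annotation Mbp-201 has 0 bases of its own, so its level rests on the split of shared reads. Mbp-208, which ends before any classic exon and encodes 55 residues, had 0.66, 0.19 and 0.76 TPM in libraries 1 to 3 and was at 0 in library 4. Mbp-213, a Golli-start transcript annotated as a decay target, reached 2.44 TPM in library 2 and 0.32 TPM in library 4 and was at 0 in the others. Its model is 433 bases long and held 2.81 estimated counts on average, so these values rest on few reads. Without Mbp-205 the Golli share was 0.129, 0.274, 0.113 and 0.121%, and the classic over Golli log2 ratio was 9.39 ± 0.60 (SD, n = 4).

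Mobp RNA was mostly in the decay form. Mobp-204 had 322, 263, 240 and 306 TPM in libraries 1 to 4, a mean of 283 ± 37.9 TPM (SD, n = 4). The 3 coding transcripts summed to 18.6, 71.7, 71.9 and 98.4 TPM, a mean of 65.2 ± 33.5 TPM. Library 1 had the most decay form and the least coding RNA. The decay share of Mobp TPM was 94.5, 78.6, 76.9 and 75.7%, a mean of 81.4 ± 8.82% (SD, n = 4), and 77.1 ± 1.45% without library 1.

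All 3 coding forms were lowest in library 1. Mobp-201, annotated with the longer protein of 170 residues, had 10.9, 32.5, 32.2 and 49.96 TPM. Mobp-203 had 7.66, 16, 33.2 and 24.6 TPM. Mobp-202 had 0.04, 23.2, 6.54 and 23.8 TPM. The estimates of the single coding forms changed order between libraries. If the deposited Mobp-203 is Mobp-202 without its exon of 79 bases, both share nearly all their bases. Their split would then say little about either form. Mobp-202 and Mobp-203, both annotated with the 81 residues, summed to 7.70, 39.2, 39.7 and 48.4 TPM. Without library 1 the decay form had 270 ± 33.6 TPM and the coding forms summed to 80.7 ± 15.3 TPM (SD, n = 3).

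**Figure D3:**
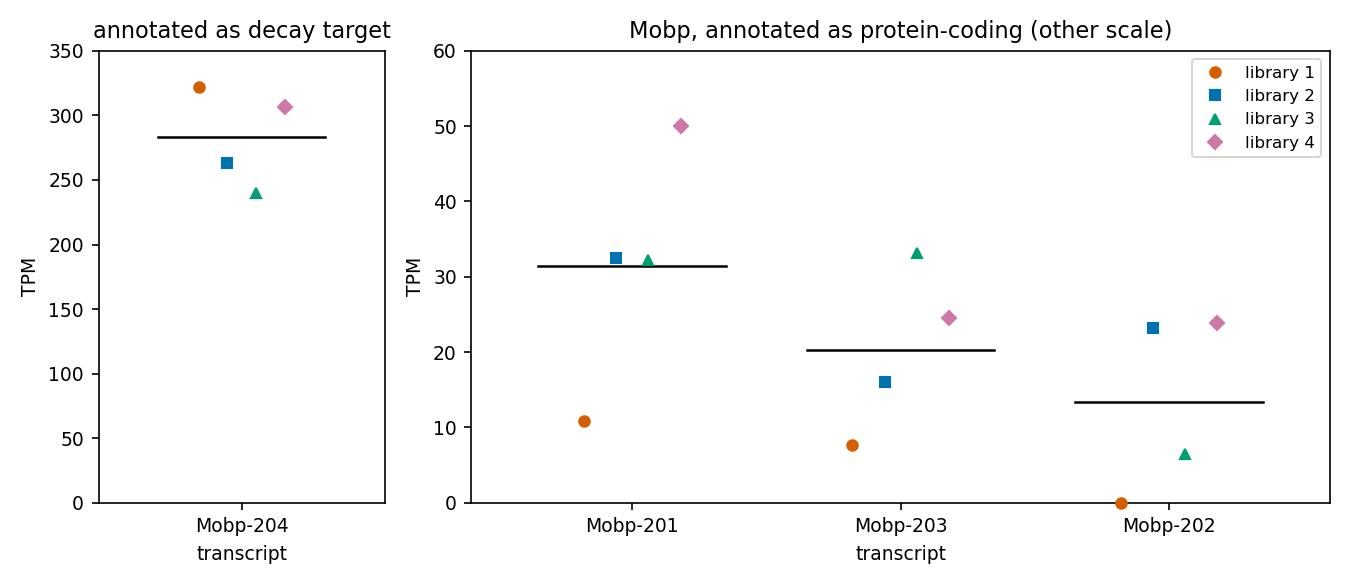
TPM of the decay form Mobp-204 (left) and of the 3 coding Mobp transcripts (right, on another scale) in the 4 libraries; the black line is the mean. Library 1 is highest for Mobp-204 at 322 TPM and lowest for each coding form.

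The decay share of Mobp was set beside that of other genes as a description. Of the 3087 genes with a mean of at least 1 TPM and both a coding and a decay transcript in the files, the median share of TPM in decay transcripts, summed over libraries, was 5.66%. Mobp stood at 81.3% by the same sum, and 32 of these genes had a higher share. A share above 50% was found in 162 genes (5.25%), and a decay transcript led in 283 genes (9.17%). Mbp had 0.04%, all of it from Mbp-213. Among the other 22 myelin genes listed, 2 had a decay transcript in the files, with shares of 0.086% and 1.29%.

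**Figure D4:**
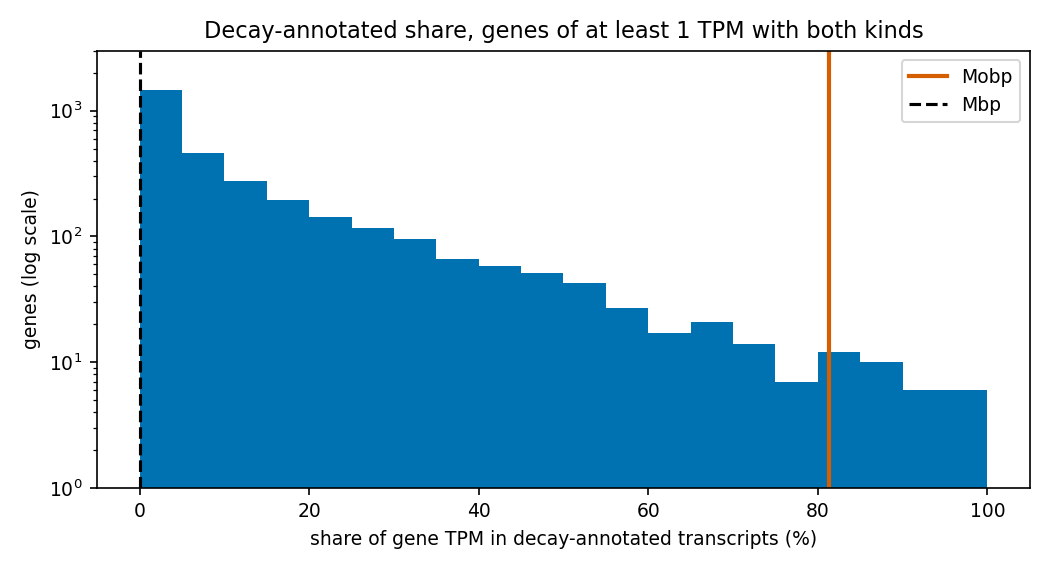
Number of genes (log scale) by the share of their TPM in transcripts annotated as decay targets, for the 3087 genes of at least 1 TPM with both kinds of transcript. Mobp (orange line, 81.3%) stands in the right tail and Mbp (dashed line, 0.04%) at the left edge.

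The factors of the decay pathway itself were expressed. A gene was called above or below 1 TPM with limma across all 19914 genes with a count (two-sided, adjusted p under 0.05), which called 62.8% of all genes above and 23.2% below. All 18 listed factors were above 1 TPM. Among them the exon junction proteins led: Eif4a3 had 159 ± 15.6 TPM, Rbm8a 91.9 ± 8.69 TPM, Magoh 68.4 ± 5.26 TPM and Casc3 49.1 ± 5.35 TPM (SD, n = 4). The lowest were Smg1, the kinase that phosphorylates the helicase Upf1, at 6.58 ± 2.83 TPM and Upf2, its partner, at 6.02 ± 1.64 TPM. The median log2 difference from 1 TPM was 3.73 over this list and 2.15 over all genes tested.

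Splicing regulators, which include proteins known to act on myelin transcripts, were all 12 above 1 TPM, against 62.8% of all genes tested. Hnrnpf had 364 ± 41.1 TPM, Hnrnpa1 263 ± 19.1 TPM, Ptbp1 210 ± 34.3 TPM and Hnrnph1 196 ± 24.4 TPM. The lowest, Khdrbs3 and Rbfox2, had 34.8 ± 31.3 and 5.24 ± 1.34 TPM. Qk, the quaking gene, whose protein binds Mbp mRNA, had 54.4, 82.5, 182 and 261 TPM in libraries 1 to 4, and was named after its values were seen. Qk thus differed more between libraries than Mbp did.

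The list for transport and local translation of Mbp mRNA was above 1 TPM in 12 of 12 genes. Hnrnpk had 1103 ± 165 TPM, Hnrnpa2b1, whose protein binds the transport signal of Mbp mRNA, 1019 ± 102 TPM, the dynein light chain Dynll1 614 ± 53.5 TPM, and Hnrnpf as above. The lowest were the kinase Fyn at 79.1 ± 11.3 TPM and the dynein heavy chain Dync1h1 at 16.7 ± 3.15 TPM. The transcription factor list of the oligodendrocyte lineage had 9 of 10 genes above 1 TPM, with Sox8 at 123 ± 12.9 TPM, Olig1 at 108 ± 17 TPM, Zfp24 at 56.4 ± 7.70 TPM and Olig2 at 38.9 ± 10.5 TPM. Nkx2-2 had 6.46 ± 1.97 TPM, and Zfp488 at 1.12 ± 0.54 TPM was not called. Of 10 genes of precursors and newly formed oligodendrocytes 7 (70%) were above 1 TPM, near the 62.8% of all genes tested. The highest were Sirt2 at 175 ± 18.9 TPM, Bcas1 at 64.5 ± 9.63 TPM, C1ql1 at 20.6 ± 4.76 TPM and the precursor receptor Pdgfra at 7.70 ± 2.36 TPM. Enpp6 (2.41 ± 1.65 TPM) and Pcdh15 (0.93 ± 0.71 TPM) were not called in either direction, nor was Cspg4 (3.15 ± 2.49 TPM), named after its values were seen. Without library 1, where it had 0.10 TPM, Enpp6 was above 1 TPM by 1.05 on the log2 scale (limma, adjusted p = 0.0134). Cspg4 was called without library 2 (3.87 TPM).

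Of the 22 other myelin genes, 21 (95.5%) were above 1 TPM, against 62.8% of all genes tested. The remaining 1 was below 1 TPM, against 23.2% of all genes. Without library 2, 3 or 4, 20 were above it. Cnp, an enzyme of the myelin sheath, had 147, 380, 365 and 449 TPM in libraries 1 to 4. Cd9 averaged 551 ± 64.9 TPM and Trf 229 ± 141 TPM, and Cldn11, a tight junction protein of myelin, was among the lowest at 6.18 ± 3.60 TPM. Set beside these genes by mean level, Mbp stood above Cd9, Cd9 above Mobp and Mobp above Cnp. The range of Mbp lay above that of Cd9, and Cd9, lowest in library 2 at 489 TPM, stood above the range of Mobp. Mobp was above Cnp only in library 1, at 341 against 147 TPM. In libraries 2 to 4 it was below, at 335, 312 and 405 against 380, 365 and 449 TPM. The order of this last pair by mean thus rests on library 1 and is the reverse of that in libraries 2 to 4. The difference was not tested.

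Library 1 stood apart from the others for most myelin genes but not for Mbp or for total Mobp, a contrast chosen after the values were seen. Of the 22 other myelin genes, 20 were lowest in library 1, and the median log2 difference of library 1 from the mean of the others was -2.08. For comparison, 30.02% of the 9433 genes of at least 10 TPM were lowest there, with a median difference of -0.05. The differences were -3.51 for Mag, -2.87 for Mog and -1.43 for Cnp. They were smaller for Pmp22, at -0.51, and for Cd9, at -0.13, which was not lowest in library 1. A small difference was therefore not particular to Mbp and Mobp-204. Classic Mbp differed by 0.09, Golli Mbp by -0.06 and the Mobp decay form by 0.26. The coding Mobp forms differed by -2.04, which places them among the other myelin genes and apart from Mobp-204.

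**Figure D5:**
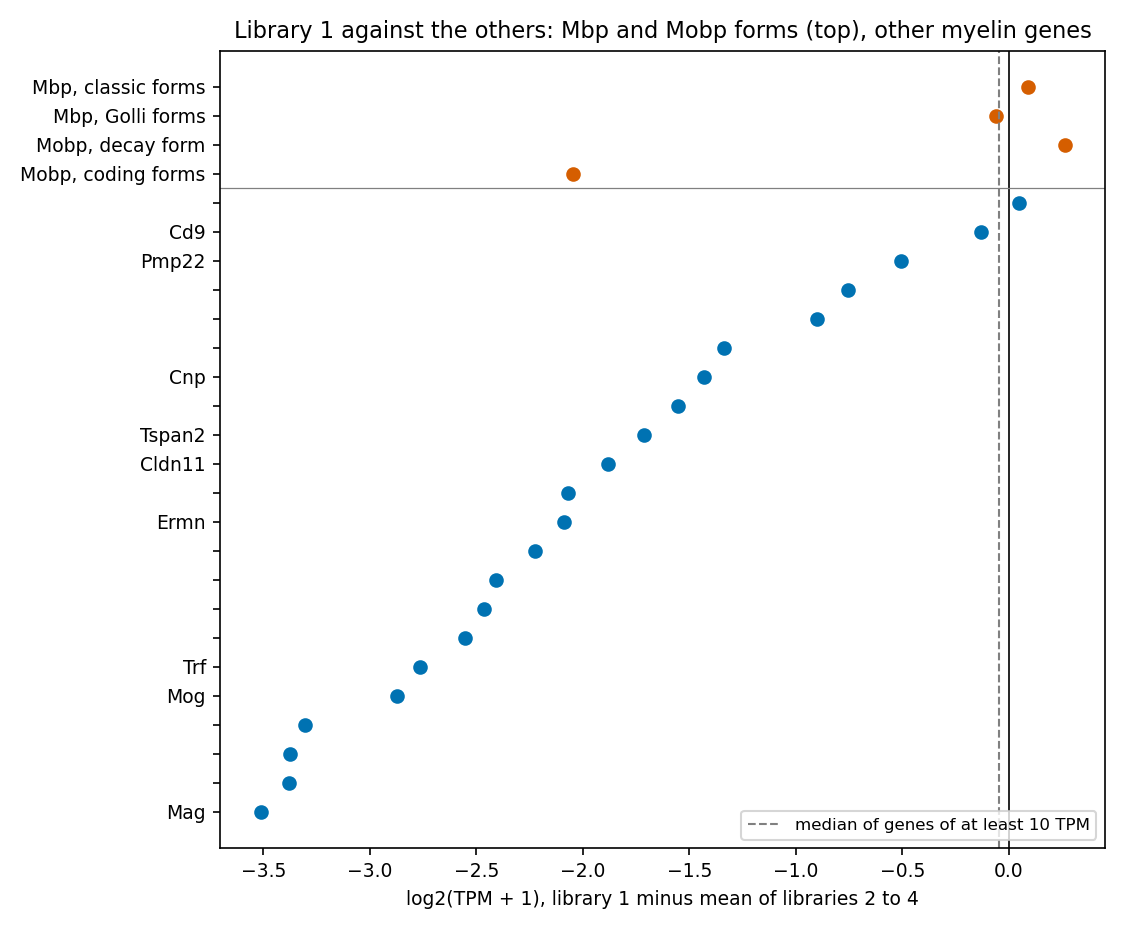
Difference of library 1 from the mean of libraries 2 to 4 in log2(TPM + 1) for the Mbp and Mobp forms (top, orange) and the 22 other myelin genes (blue, in order of the difference, with the genes named in the text labelled); the dashed line is the median of the 9433 genes of at least 10 TPM. The coding Mobp forms at -2.04 lie among the other myelin genes, whereas the Mobp decay form at 0.26 and both kinds of Mbp transcript lie near 0.

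Ratios within each library restate these values against Cnp, a gene lowest in library 1 that was chosen after the values were seen. They are no further support. A gene with another difference, such as Cd9 (-0.13) or Mag (-3.51), would give other ratios. Mbp over Cnp was 12.1 in library 1 and 4.23, 4.03 and 4.38 in libraries 2 to 4. The Mobp decay form over Cnp was 2.20 in library 1 and 0.693, 0.657 and 0.682 in the others. The coding Mobp forms over Cnp were 0.127, 0.189, 0.197 and 0.219. The coding ratio thus varied 1.73-fold over the 4 libraries and was lowest in library 1, against 3.01-fold for Mbp and 3.34-fold for the decay form, both highest there. Mbp over the coding Mobp forms was 95.5 in library 1 and between 20.01 and 22.4 in the others.

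Likeness of profile was measured as the root mean square difference of log2(TPM + 1), centred on its mean over the 4 libraries. Among the myelin genes nearest to Mbp were Cd9 (0.242) and Pmp22 (0.279), and the same genes were among the nearest to Mobp, at 0.211 and 0.225. Mbp and Mobp differed from each other by 0.054, less than either differed from those genes. Among the nearest to the coding Mobp forms were Ermn (0.1) and Tspan2 (0.162), while the decay form of their own gene differed from them by 1.002.

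Markers of other cell types were read for the same contrast. Of 8 microglia genes all were above 1 TPM and 7 were lowest in library 1, and they summed to 112 TPM in library 1 and 279, 386 and 373 TPM in libraries 2 to 4. Ctss had 25.8 TPM in library 1 against 65.8 to 71.4 TPM in the others. Csf1r (51.9 ± 30.1 TPM), C1qa (51.1 ± 18.2 TPM), C1qb (46.5 ± 24.4 TPM), Aif1 (14.4 ± 4.83 TPM) and Cx3cr1 (13.4 ± 8.54 TPM) were the other genes named from this list. Mature neuron genes were above 1 TPM in 6 of 8 cases (75%, against 62.8% of all genes tested). Of the 8, 6 were highest in library 1, with sums of 1312 TPM there and 1072, 1065 and 1106 TPM in the others. For comparison, 19.04% of the 9433 genes of at least 10 TPM were highest in library 1. The highest were Rbfox3 (58.97 ± 8.53 TPM), Snap25 (136 ± 27.9 TPM), Camk2a (218 ± 39.6 TPM) and Ppp1r1b (692 ± 52.7 TPM), while Slc17a7 (2.49 ± 1.57 TPM) and Slc32a1 (1.91 ± 0.86 TPM) were not called; without library 4 Slc17a7 was, at a log2 difference of 0.93. The part of these cell types in the Mbp and Mobp values was not tested.

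Neuroblast genes were all 8 above 1 TPM (against 62.8% of all genes tested), with sums of 735 to 928 TPM. Of the 8, 6 were highest in library 1, against 19.04% of the genes of at least 10 TPM. Dlx2 (228 ± 43.0 TPM), Ncam1 (187 ± 5.85 TPM), Dlx1 (145 ± 12.2 TPM) and Cd24a (113 ± 29.3 TPM) led, and Dcx (18 ± 3.9 TPM) and Sox11 (16.5 ± 3.31 TPM) were lowest. The 10 stem cell and astrocyte genes were all above 1 TPM, from Apoe at 13786 ± 1313 TPM, Aldoc at 2236 ± 306 TPM, Slc1a3 at 1009 ± 145 TPM and Fabp7 at 365 ± 39.5 TPM down to Prom1 at 23.0 ± 7.01 TPM and Nes at 19.8 ± 4.56 TPM, and 1 of them was lowest in library 1. Of 8 T cell genes, read because Golli is known from T cells, 2 (25%) were above 1 TPM, against 62.8% of all genes tested. These were Cd4 at 9.12 ± 1.31 TPM and Trac at 7.53 ± 0.97 TPM. Cd8a was below 1 TPM at 0.026 ± 0.035 TPM. Cd3d (1.23 ± 0.43 TPM) and Trbc2 (0.64 ± 0.75 TPM) were not called, and Cd3e, Cd3g and Cd2 were at 0 in all 4 libraries. The T cell list summed to 17.3 to 20.8 TPM.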

How the data were processed

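RNA of sorted cells was extracted with PicoPure, made into cDNA with SMART-Seq v4 and sequenced as 100-base pairs on a HiSeq, per the labels' protocols. Per the submitters' processing notes, kallisto, sleuth and the build mm10 were used; versions and index release: not given in the sources used here. Estimated counts, as deposited, are those the authors' run assigned to each transcript, so reads shared by transcripts of a gene are divided by estimate. The deposited TPM values are these counts per effective length, scaled to a fixed total per library. Low-input cDNA is amplified and no molecular identifiers are named, so limits cover counting error only. A 0 (under 0.01 counts) was given a limit of 3 counts per library.

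Transcripts were matched by identifier without version to GENCODE M21 (GRCm38), 98294 of 99567; coordinates and exons come from it. An Mbp transcript was called Golli-start when it begins over 10000 bases upstream of the classic start codon, and decay forms follow the annotated biotype. The test of list genes was limma on log2(TPM + 1) with a mean-variance trend against 1 TPM, adjusted by Benjamini-Hochberg over all genes; it was tested on simulated data. Alternatives were a pseudocount of 0.1, a mean of at least 5 counts, a level of 5 TPM, protein-coding or the most abundant transcripts only, rescaling, edgeR with counts rounded to whole numbers, CPM, transcripts of at least 500 bases and each library left out. Restriction to transcripts of matching length, removal of Mbp-205 and exon shares by annotation were chosen after seeing the data.

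Members, lists and tests were chosen with earlier results of these data known. Named were transcripts of at least 1 TPM on average or 1% of their gene in any library, the 4 highest and 2 lowest genes of each list, and the 3 myelin genes nearest in profile to Mbp and to Mobp. The other transcripts are given for completeness. A few selected genes are left out by name and enter only the counts over lists. Mag, Mog, Tspan2 and Ermn were named after their values were seen. Software was R 4.3.3 with limma 3.58.1 and edgeR 4.0.16, and Python 3.11.15 with pandas 2.3.3, numpy 2.4.6 and matplotlib 3.10.9.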

Additional observations from a re-analysis of the deposited data

Results flagged for a closer look

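Of 90 values and levels screened, 2 had 1 library far from the other 3; chance alone gives about 1 in 20. The decay share of Mobp TPM was 94.5% in library 1 and 75.7 to 78.6% in libraries 2 to 4. Ctss, a lysosomal protease of microglia, had 25.8 TPM in library 1 and 65.8 to 71.4 TPM in the others.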

How the results depend on the processing

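No paired analysis was possible because the labels give 1 group. The Golli share of Mbp was 1.90% by estimated counts, which weight the long Mbp-205, and 0.159% without Mbp-205, and the classic over Golli log2 ratio was 5.73 and 9.39. Restricted to transcripts of matching length, the decay share of Mobp was 95.5%, because 2 of its 3 coding forms leave the sum. The Mbp level was 1166 TPM with the most abundant transcript only, 2297 when rescaled to nuclear protein-coding genes, which shifts all genes by 0.43 (log2), and 2118 CPM without length correction. The Mobp level was 65.2 TPM with protein-coding transcripts only, 283 with the most abundant only, 469 after rescaling and 570 CPM. The Mbp over Mobp log2 ratio was 4.93 ± 1.10 (SD, n = 4) with protein-coding transcripts only, 2.04 with the most abundant only and 1.89 by CPM. Leaving out 1 library gave ranges of 0.783 to 0.936% (Golli share), 6.74 to 7.02 (classic over Golli), 77.1 to 83.4% (decay share), 1618 to 1784 TPM (Mbp), 329 to 360 TPM (Mobp), 2.26 to 2.31 (Mbp over Mobp) and 76 to 78 list genes above 1 TPM.

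Over the 6 oligodendrocyte and RNA-processing lists, 77 of 82 genes were above 1 TPM, against 62.8% of all genes tested. At a level of 5 TPM 62 were above it, and the alternatives other than left-out libraries gave 77 to 79. At 5 TPM the precursor list kept 3 genes. Genes without a call changed sign with the level of 5 TPM (Zfp488 -1.54, Enpp6 -1.01, Slc17a7 -0.89, Slc32a1 -1.10, Cd3d -1.45), after rescaling (Pcdh15 0.088) and without a library (Zfp488 ranged from -0.092 to 0.189, Pcdh15 from -0.348 to 0.022). Of the genes without a call, these were called above 1 TPM: with edgeR Enpp6, Cspg4, Slc17a7 and Slc32a1; after rescaling Cspg4, Slc17a7 and Slc32a1; at 5 counts or more Cspg4 and Slc17a7; and without 1 library Enpp6 (library 1), Cspg4 (library 2) and Slc17a7 (library 4). By annotated exons the exon II share was 2.65%, against 0.248% over transcripts of matching length, and the exon VI share 17.6%, against 20.0%. Depth limits the forms under 1 TPM, which rest on few reads, and the split of reads between forms is an estimate whose error the files do not give.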
